A study of Mus musculus with 18 samples.

Results

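CD8+ T cells and the CD3-CD8- leukocytes of the same kind of liver were compared in 6 untreated libraries, 3 of CD45+CD3+CD8+ cells and 3 of CD45+CD3-CD8- cells. All 6 came from livers of wild-type C57BL/6J mice, 7 weeks old when bought and housed for 1 more week, whose liver tumours were raised with RAS and MYC delivered by HTVi, hydrodynamic tail vein injection. None of these mice received the antibodies or poly(I:C) given to treated mice in the series. The rule for the libraries used labels and no measured value: the untreated libraries numbered 1, 5 and 18 of each fraction, 6 of the 18 libraries used, and every gene expressed in them. Of 48440 gene identifiers in the table, 12463 passed a filter on low counts and were tested. The labels do not say whether a number marks a single mouse, whether cells were pooled, or whether cells came from tumour or whole liver. The p-values therefore measure the spread between libraries of a group, estimated over all 18 libraries, and this spread may be technical in part.

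A CD8+ T cell recognises peptides on MHC class I through its T cell receptor, a dimer that signals through the CD3 chains and the kinases Lck and Zap70, with CD8 as coreceptor. Leukocytes without CD3 and CD8 in the liver include B cells, which carry immunoglobulin and present antigen on MHC class II, natural killer (NK) cells, Kupffer cells (the resident macrophages), monocytes, neutrophils, dendritic cells and mast cells or basophils. Naive and long-lived memory T cells are known for Il7r, Tcf7 and Lef1, while effector T cells and NK cells share granzymes and perforin. RNA of a sorted fraction is the sum over its cells, so fewer cells of a type and less RNA per cell cannot be told apart.

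Total counts were 4680522, 6703330 and 2400074 in CD3+CD8+ libraries 1, 5 and 18, against 10361522, 26835919 and 10066700 in CD3-CD8- libraries 1, 5 and 18. In CD3+CD8+ libraries 1 and 18, 5 loci of ribosomal or mitochondrial origin (Lars2, mt-Rnr1, mt-Rnr2, mt-Co1 and Rn18s-rs5) took 86.9% and 82.2% of all counts, against 4.49% in CD3+CD8+ library 5 and 4.91% to 15.2% in the CD3-CD8- libraries. That left 613074 and 428171 counts for all other genes in CD3+CD8+ libraries 1 and 18, against 6402497 in CD3+CD8+ library 5 and 8537322 to 25519452 in the CD3-CD8- libraries. Levels are given as CPM, counts scaled to a common depth, with library sizes adjusted by TMM, a method that sets the typical gene equal between libraries. On this scale 3 counts were worth 3.84, 0.311 and 5.67 CPM in CD3+CD8+ libraries 1, 5 and 18, against 0.0709 to 0.239 CPM in CD3-CD8- libraries, so low genes were measured far less precisely in CD3+CD8+ cells. Log2 CPM values correlated across genes at 0.673 to 0.869 between CD3+CD8+ libraries and at 0.913 to 0.963 between CD3-CD8- libraries. The sex-linked gene Xist had 1446, 0.519 and 5.66 CPM in CD3+CD8+ cells, against 309.7, 0.638 and 0.557 CPM in CD3-CD8- cells; it was high in both libraries numbered 1 and near 0 in those numbered 5 and 18, and the labels give no sex. The fit described below draws its spread from all 18 libraries. One of them, the library labelled untreated CD3+CD8- 6, had 644 CPM of Cd8a and 103 CPM of Cd4, against 4.68 and 6.89 CPM of Cd8a and 453 and 287 CPM of Cd4 in CD3+CD8- libraries 5 and 18, which goes against its label. Values below follow the order of library numbers 1, 5 and 18.

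The CD8 genes lay higher in every CD3+CD8+ library, but CD3-CD8- cells also held T cell transcripts. Cd8a, which encodes the alpha chain of CD8, had 667, 964 and 287 CPM in CD3+CD8+ cells, against 178, 282 and 60.2 CPM in CD3-CD8- cells. Cd8b1, the beta chain, had 479, 954 and 196 CPM in CD3+CD8+ cells, against 91.1, 172 and 39.5 CPM in CD3-CD8- cells. All 3 CD3+CD8+ libraries lay above all 3 CD3-CD8- libraries for both, although library 18 of CD3+CD8+ cells lay close to library 5 of CD3-CD8- cells. Since the gate used these proteins, the levels are a description, and the fitted log2 fold changes of 1.89 ± 1.17 and 2.44 ± 1.01 (SE) show how widely they spread. Cd3e, a signalling chain of the receptor complex, had 244, 263 and 123 CPM in CD3+CD8+ cells, against 108, 123 and 51.4 CPM in CD3-CD8- cells. The fractions overlapped for Cd3e because CD3+CD8+ library 18 stood just under CD3-CD8- library 5, and within library numbers 1, 5 and 18 the log2 difference was 1.17, 1.10 and 1.25. The common leukocyte antigen gene Ptprc had 1696 to 2485 CPM in CD3+CD8+ cells, against 1148 to 1407 CPM in CD3-CD8- cells. The helper T cell coreceptor gene Cd4 had 39.5 to 80.6 CPM in CD3+CD8+ cells, against 32.6 to 72.5 CPM in CD3-CD8- cells, with overlapping groups.

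Markers of other cells were present in CD3+CD8+ library 18 in particular. Ms4a1, the gene of CD20 on B cells, had 35.8, 3.01 and 351 CPM in CD3+CD8+ cells, against 577, 548 and 529.7 CPM in CD3-CD8- cells. Cd79a, a signalling chain of the B cell receptor, had 11.5, 1.56 and 128 CPM in CD3+CD8+ cells, against 234, 376 and 338 CPM in CD3-CD8- cells. CD3+CD8+ library 18 was the highest of its group for both, and the 2 groups did not overlap. Ncr1, the gene of the NK cell receptor NKp46, had 21.8, 1.04 and 104 CPM in CD3+CD8+ cells, against 188, 122 and 142 CPM in CD3-CD8- cells, again highest in CD3+CD8+ library 18. Summed over 24 B cell markers, CD3+CD8+ libraries held 718, 614 and 4033 CPM, against 6118, 9058 and 8776 CPM in CD3-CD8- libraries. For 19 NK cell and ILC1 markers the sums were 1084, 964 and 1588 CPM in CD3+CD8+ libraries, against 2446, 1594 and 1834 CPM in CD3-CD8- libraries. For 20 Kupffer cell markers they were 113, 50.9 and 857 CPM in CD3+CD8+ libraries, against 589.9, 896 and 1876 CPM in CD3-CD8- libraries. CD3+CD8+ library 5 was thus the lowest in its group for all 3 sums, and library 18 the highest; the part of these transcripts in the differences below was not tested.

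**Figure D1:**
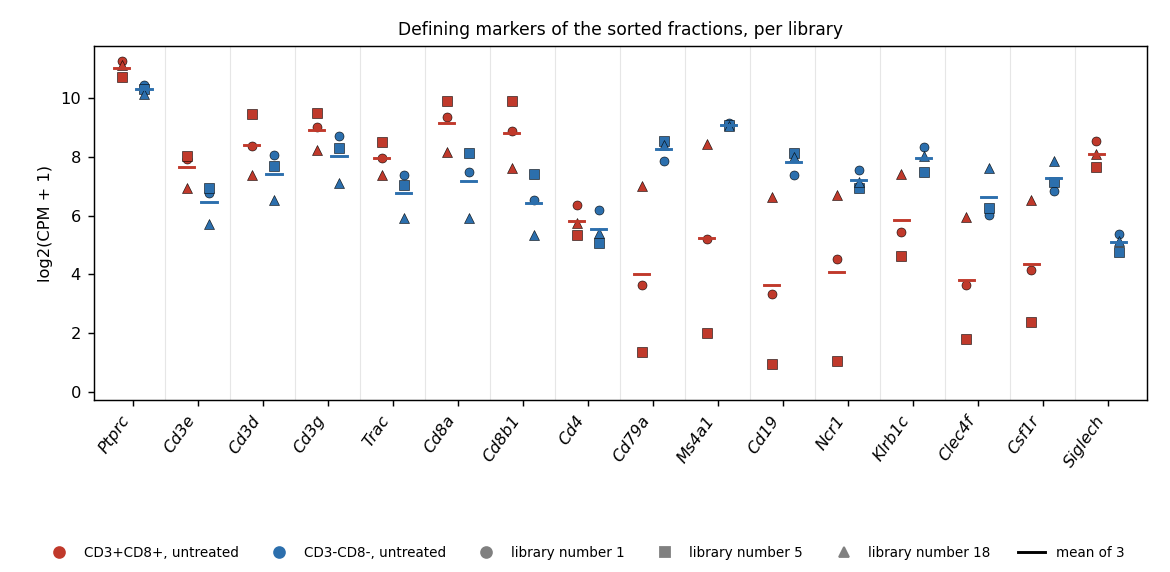
Levels of 16 defining markers in the 6 untreated libraries, as log2(CPM + 1); red points are CD3+CD8+ libraries, blue points CD3-CD8- libraries, symbols give the library number and bars the mean of 3. Cd8a and Cd8b1 lie higher in all 3 CD3+CD8+ libraries, and B cell, NK cell and macrophage markers lie lower, with CD3+CD8+ library 18 nearest to the CD3-CD8- cells.

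At an adjusted p below 0.05 by edgeR's quasi-likelihood test, 287 genes were higher in CD3+CD8+ cells (2.3% of 12463) and 308 were lower (2.47%), 595 or 4.77% in all. A log2 fold change of at least 1 was shown by 260 of the higher genes (2.09% of those tested), and one of at most -1 by 300 of the lower genes (2.41%). The median log2 fold change over all genes tested was 0.00279, and 50.2% were positive. With the library number as a block, which compares each CD3+CD8+ library with the CD3-CD8- library of its number, 665 genes were higher (5.34%) and 909 lower (7.29%), and these held 277 of the 287 and all 308. Of the called genes, 267 of the 287 higher and 306 of the 308 lower did not overlap between the groups, against 17.1% and 14.8% of all genes tested. The calls used the same values, so this describes the called genes and is no check on them. Of the 308 lower genes, 26 had no count and 48 had 1 to 3 counts over the 3 CD3+CD8+ libraries together. The sign of the fold change was the same with CD3+CD8+ library 5 alone for 273 of the 287 and 308 of the 308. That library took part in the calls too, so this is no independent check.

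The number of calls rested on single libraries. Leaving out CD3+CD8+ library 1, 5 or 18 gave 45, 599 and 260 higher and 53, 417 and 664 lower genes, and leaving out CD3-CD8- library 1, 5 or 18 gave 125, 42 and 55 higher and 222, 55 and 83 lower genes. A core of 33 higher and 31 lower genes remained called in all 6 of these fits, and every called gene kept its sign. Scaling by library totals shifted the median of all genes by -1.15 and the FPKM values by -1.47 on the log2 scale, and the split became 42 higher against 1049 lower and 57 higher against 1332 lower. The library names put CD3+CD8+ libraries 1, 5 and 18 on lanes 3, 2 and 3 and CD3-CD8- libraries on lanes 2, 3 and 2, and a fit with lane as a covariate gave 274 higher against 329 lower. Without the library labelled untreated CD3+CD8- 6, a fit added after the data were seen, 269 were higher and 401 lower. Correcting for transcript GC content gave 206 higher against 350 lower. Relative to the shift, none of the 24 higher and 46 lower genes named by rule changed sign under library totals, nor any of the 23 and 43 that the FPKM values could test. All differences below are relative to the TMM scale.

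**Figure D2:**
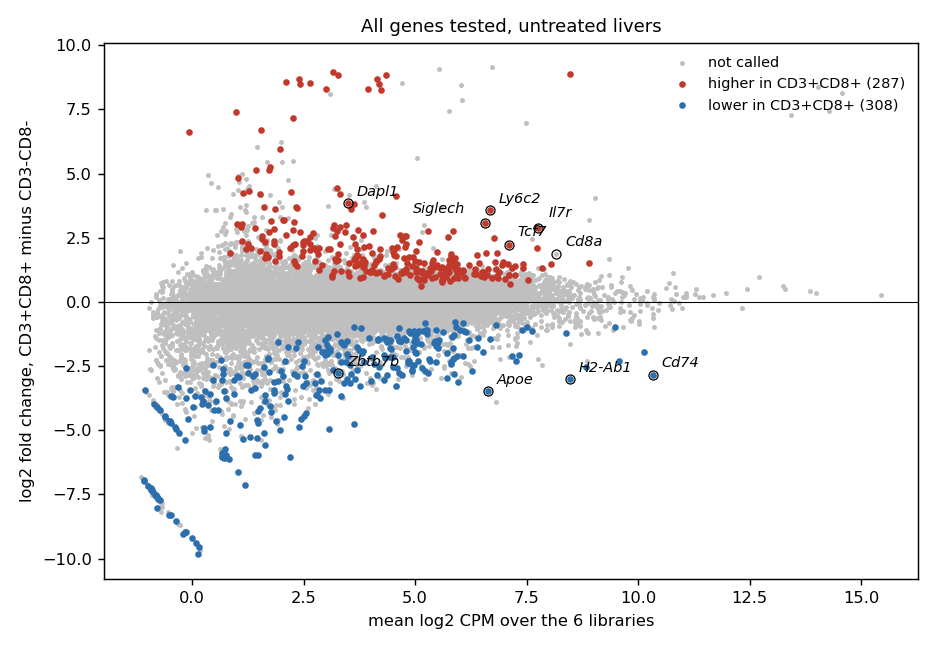
Mean log2 CPM over the 6 libraries (horizontal) and log2 fold change of CD3+CD8+ over CD3-CD8- cells (vertical) for 12463 genes; red points are the 287 genes called higher in CD3+CD8+ cells, blue points the 308 called lower. Il7r, Tcf7, Siglech and Ly6c2 stand high and Cd74, H2-Ab1 and Apoe low; the diagonal lines at the lower left are genes with 0 or few counts in CD3+CD8+ cells, whose fitted fold is set by the prior count. Red points above 6 are mostly small RNA genes and unnamed gene models that were high in CD3+CD8+ libraries 1 and 18 and low in 5.

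Among the members of 39 gene lists, calls in the direction of CD3+CD8+ cells fell mostly among naive and memory T cell genes (8 of 20 tested), T cell receptor signalling genes (4 of 28), T cell transcription factors (4 of 24) and plasmacytoid dendritic cell markers (5 of 19), read against 2.3% of all genes. Calls in the other direction fell mostly among MHC class II presentation genes (11 of 15), B cell markers (8 of 24), B cell receptor signalling genes (7 of 20), plasma cell genes (4 of 13) and conventional dendritic cell markers (4 of 18), against 2.47% of all genes. The lists and their members were chosen with earlier results of these data known, so these shares describe the calls and test nothing. Counts of list members called with the library number as a block are read against 5.34% higher and 7.29% lower of all genes. Some genes stand in more than 1 list. Of 803 list entries, 799 were in the table and 774 passed the filter on low counts.

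**Figure D3:**
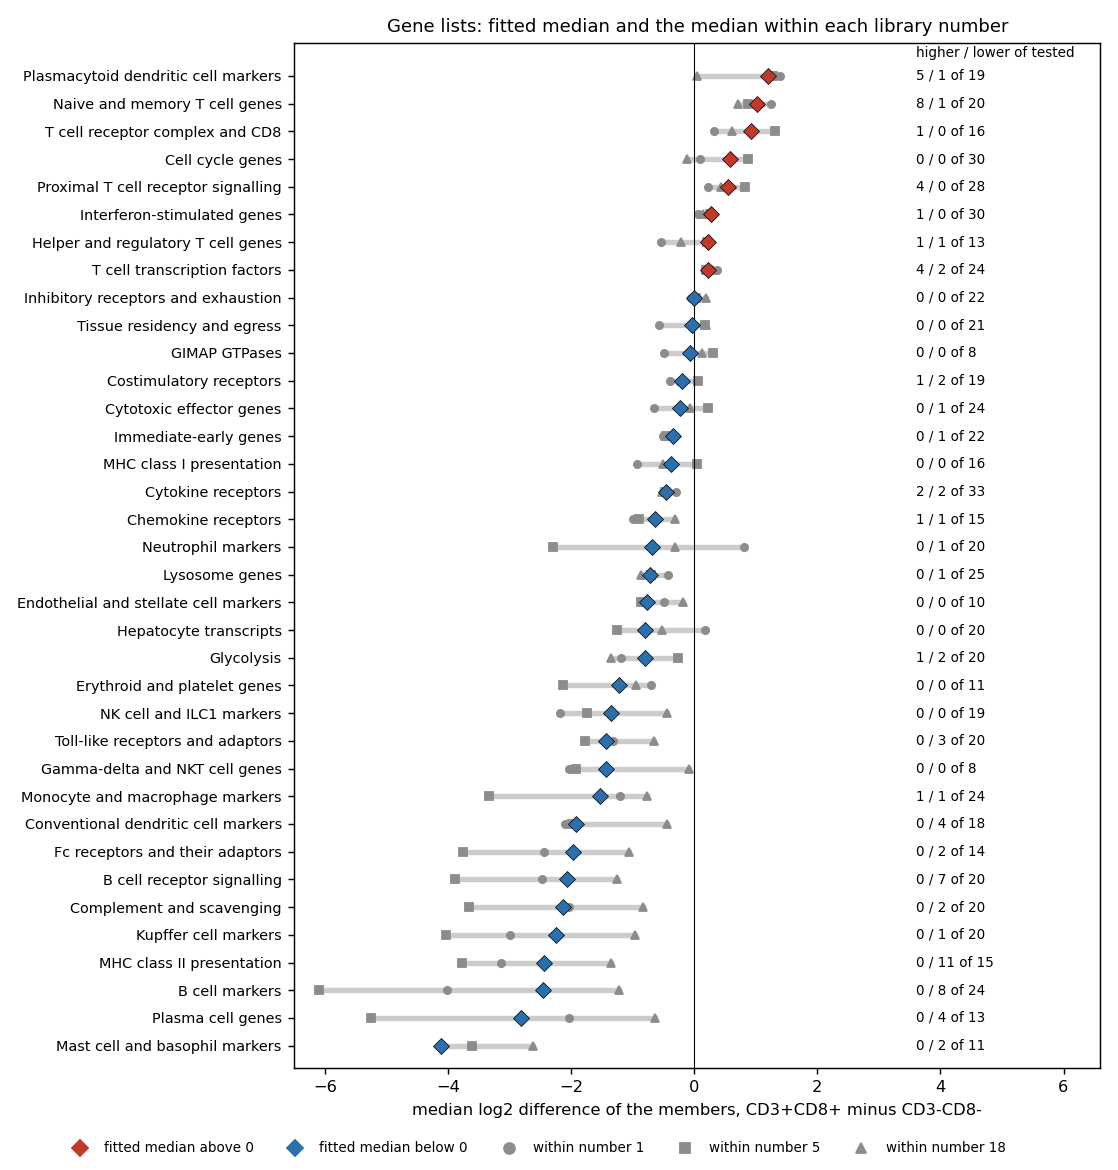
Median log2 difference of each gene list, CD3+CD8+ minus CD3-CD8-; diamonds are the medians of the fitted fold changes, grey symbols the medians within library number 1, 5 and 18, and the counts at the right give members called higher / lower of those tested. B cell, MHC class II, Kupffer cell and mast cell lists lie to the left within every number, and naive and memory T cell genes and plasmacytoid dendritic cell markers to the right, with number 18 of the plasmacytoid list close to 0.

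Of the 16 genes tested of the T cell receptor complex and its coreceptors, 15 had a positive log2 fold change and 1 passed the test. The median was 0.92, against 0.00279 over all genes. With the library number as a block 5 were higher, against 5.34% of all genes. Of these 5, Cd3e, Cd8a and Cd8b1 encode proteins of the gate, so their calls restate the sort, and the others were Trac and Cd28. The gene that passed was Cd28, which encodes the costimulatory receptor for CD80 and CD86, with 212, 130.1 and 149 CPM in CD3+CD8+ cells, against 66.2, 44 and 29.5 CPM in CD3-CD8- cells (log2 fold change 1.81 ± 0.38 (SE), adjusted p = 0.0154). No CD3-CD8- library reached the lowest CD3+CD8+ library. Cd28 lost its call without CD3+CD8+ library 1 and without CD3-CD8- library 5 or 18.

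The receptor chains themselves spread more widely. Trac, the constant segment of the alpha chain, had 248, 368 and 168 CPM in CD3+CD8+ cells, against 165, 131 and 60.2 CPM in CD3-CD8- cells (log2 fold change 1.15 ± 0.36 (SE), adjusted p = 0.0719, and 0.0213 with the library number as a block). Its groups did not overlap, by a small margin. The constant segments Trbc1 and Trbc2 of the beta chain had log2 fold changes of 0.54 ± 0.42 and 0.81 ± 0.38, neither past the test. Thy1 had 201, 553 and 106 CPM in CD3+CD8+ cells, against 272, 205 and 118 CPM in CD3-CD8- cells; only CD3+CD8+ library 5 lay above the CD3-CD8- libraries. Tcrg-C1, a constant segment of the gamma chain, was the 1 member with a negative value, -1.75 ± 0.71 (adjusted p = 0.149). Of 33 receptor variable segments tested, 3 were higher and 1 lower, against 2.3% and 2.47% of all genes, with a median of 1.25.

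Downstream of the receptor, 4 of 28 signalling genes were higher and none lower. With the block 7 were higher, against 5.34% of all genes. Of the 28, 22 had a positive value, and the median was 0.54. Themis, an adaptor needed for T cell development in the thymus, had 347, 247 and 232 CPM in CD3+CD8+ cells, against 62.5, 61.8 and 22.3 CPM in CD3-CD8- cells (log2 fold change 2.49 ± 0.41 (SE), adjusted p = 0.00497). Its lowest CD3+CD8+ library stood well above its highest CD3-CD8- library, and the call held without each library in turn. Prkcq, the gene of protein kinase C theta, had 235, 287 and 139.7 CPM in CD3+CD8+ cells, against 95.2, 71.8 and 59.1 CPM in CD3-CD8- cells (log2 fold change 1.56 ± 0.32 (SE), adjusted p = 0.0149). Fyb, the gene of the adaptor ADAP, had 267, 197 and 194 CPM in CD3+CD8+ cells, against 132, 92.5 and 94 CPM in CD3-CD8- cells (log2 fold change 1.05 ± 0.26 (SE), adjusted p = 0.0328). The groups did not overlap for Themis, Prkcq or Fyb. Of the 4 calls, 1 remained without CD3+CD8+ library 1, 2 without CD3-CD8- library 1, and 1 without CD3-CD8- library 5 or 18.

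Other kinases and adaptors of the same pathway did not pass. Lck, the kinase that starts the cascade, had 194, 567 and 77.4 CPM in CD3+CD8+ cells, against 302, 301 and 134 CPM in CD3-CD8- cells (log2 fold change 0.21 ± 0.57, adjusted p = 0.862). CD3+CD8+ library 5 was the highest of all 6 and library 18 the lowest, and with the block the sign turned, to -0.06. Zap70, the kinase recruited to the CD3 chains, had 19.2, 81.7 and 15.1 CPM in CD3+CD8+ cells, against 85.3, 65.2 and 25.2 CPM in CD3-CD8- cells (log2 fold change -0.45 ± 0.72, adjusted p = 0.741). Within CD3+CD8+ cells it was high in library 5 alone, and the groups overlapped. Lat, their shared scaffold, had 41.5 to 210.1 CPM in CD3+CD8+ cells, against 34.5 to 85.5 CPM in CD3-CD8- cells. The phosphatase gene Ptpn22, which restrains signalling, had 247 to 447 CPM in CD3+CD8+ cells, against 112 to 222 CPM in CD3-CD8- cells, with an adjusted p of 0.0589, and 0.0241 with the block. The block also called Txk (adjusted p = 0.0370) and Dgka (adjusted p = 0.0113), both positive.

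The naive and memory list held 8 higher genes and 1 lower gene of 20 tested, with 16 positive values and a median of 1.02. The block called 11 higher and 2 lower, against 5.34% and 7.29% of all genes. Il7r, the alpha chain of the interleukin-7 receptor that keeps resting T cells alive (chr15:9506161-9529876, a position of the authors' FPKM table that fits build GRCm38), had 875, 677 and 414 CPM in CD3+CD8+ cells, against 170.1, 58 and 40.0 CPM in CD3-CD8- cells (log2 fold change 2.88 ± 0.49 (SE), adjusted p = 0.00601). The lowest CD3+CD8+ library held more than the highest CD3-CD8- library, which was library 1. Tcf7, the gene of the transcription factor TCF-1, had 313, 475 and 147 CPM in CD3+CD8+ cells, against 81.4, 70.6 and 51.8 CPM in CD3-CD8- cells (log2 fold change 2.21 ± 0.37 (SE), adjusted p = 0.00559). Lef1, its relative, had 107, 116 and 85 CPM in CD3+CD8+ cells, against 18.2, 14.9 and 12.2 CPM in CD3-CD8- cells (log2 fold change 2.78 ± 0.44 (SE), adjusted p = 0.00395). CD3-CD8- libraries stayed within a narrow range for both, and all CD3+CD8+ libraries lay above it. Dapl1, a gene known from naive CD8+ T cells, had 37.1, 76.9 and 20.8 CPM in CD3+CD8+ cells, against 4.34, 3.59 and 1.83 CPM in CD3-CD8- cells (log2 fold change 3.85 ± 0.70 (SE), adjusted p = 0.00856). These 4 genes remained called without each library in turn.

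Bcl11b, a factor that commits cells to the T lineage, had 128, 76.7 and 75.5 CPM in CD3+CD8+ cells, against 34.3, 26.1 and 12 CPM in CD3-CD8- cells (log2 fold change 1.94 ± 0.36 (SE), adjusted p = 0.00965). Actn1, which encodes an actin crosslinker, had 71.8 to 150.3 CPM in CD3+CD8+ cells, against 27.4 to 44 CPM in CD3-CD8- cells (log2 fold change 1.70 ± 0.37 (SE), adjusted p = 0.0174). Myb, a transcription factor gene of lymphocyte precursors, had 13.2 to 25.6 CPM in CD3+CD8+ cells, against 3.90 to 6.64 CPM in CD3-CD8- cells (log2 fold change 1.86 ± 0.42 (SE), adjusted p = 0.0223). Satb1, an organiser of chromatin, had 189 to 349 CPM in CD3+CD8+ cells, against 89.5 to 115 CPM in CD3-CD8- cells (log2 fold change 1.47 ± 0.41 (SE), adjusted p = 0.0484). None of these overlapped between the groups. Bcl11b lost its call in 1 such fit, the one without CD3+CD8+ library 1, while Satb1 held in 1 of the 6 and lost its call without the library labelled CD3+CD8- 6 (adjusted p = 0.0587). Of the 9 calls of the list, 4 remained without CD3+CD8+ library 1 and 5 without CD3-CD8- library 5.

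A homing gene of naive cells did not pass the test. Ccr7, the lymph node homing receptor, had 114, 165 and 77.4 CPM in CD3+CD8+ cells, against 104, 128 and 84.6 CPM in CD3-CD8- cells (log2 fold change 0.19 ± 0.50, adjusted p = 0.848). The groups overlapped. The lower member was Cxcr5, a homing receptor of B cell follicles, with 19.2, 23.4 and 60.4 CPM in CD3+CD8+ cells, against 95.2, 139 and 100 CPM in CD3-CD8- cells (log2 fold change -1.79 ± 0.40 (SE), adjusted p = 0.0215). It stands in the B cell list too, and CD3+CD8+ library 18, which held the most B cell transcripts of its group, was the highest of the 3.

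Among 24 T cell transcription factors, 4 were higher (Tcf7, Lef1, Bcl11b and Ikzf2) and 2 lower, with a median of 0.22; the block called 4 higher and 5 lower. Ikzf2, the gene of Helios, had 124, 28.9 and 106 CPM in CD3+CD8+ cells, against 22.1, 18 and 9.71 CPM in CD3-CD8- cells (log2 fold change 2.33 ± 0.62 (SE), adjusted p = 0.0429). CD3+CD8+ libraries 1 and 18 were high and library 5 lay only just above the CD3-CD8- cells, and 1 of the 6 fits that left out a library called it. Zbtb7b, the gene of ThPOK that directs CD4+ T cell fate and represses CD8 genes, had 2.56, 4.25 and 3.78 CPM in CD3+CD8+ cells, against 32, 26 and 20.9 CPM in CD3-CD8- cells (log2 fold change -2.78 ± 0.49 (SE), adjusted p = 0.00713). All CD3+CD8+ libraries lay far below, and the call held without each library in turn. Irf4, which is used by activated lymphocytes and plasma cells, had 12.8, 13.6 and 26.4 CPM in CD3+CD8+ cells, against 40.6, 51 and 45.7 CPM in CD3-CD8- cells (log2 fold change -1.48 ± 0.36 (SE), adjusted p = 0.0304). Nr4a1, an immediate-early gene of receptor signalling, had 5.12, 12.1 and 3.78 CPM in CD3+CD8+ cells, against 55.5, 43.8 and 22.3 CPM in CD3-CD8- cells (log2 fold change -2.24 ± 0.64 (SE), adjusted p = 0.0539); the groups did not overlap and the block called it lower (adjusted p = 0.00525). The effector regulators Eomes and Tbx21 had log2 fold changes of 0.62 ± 0.52 and -0.30 ± 0.36, neither past the test.

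**Figure D4:**
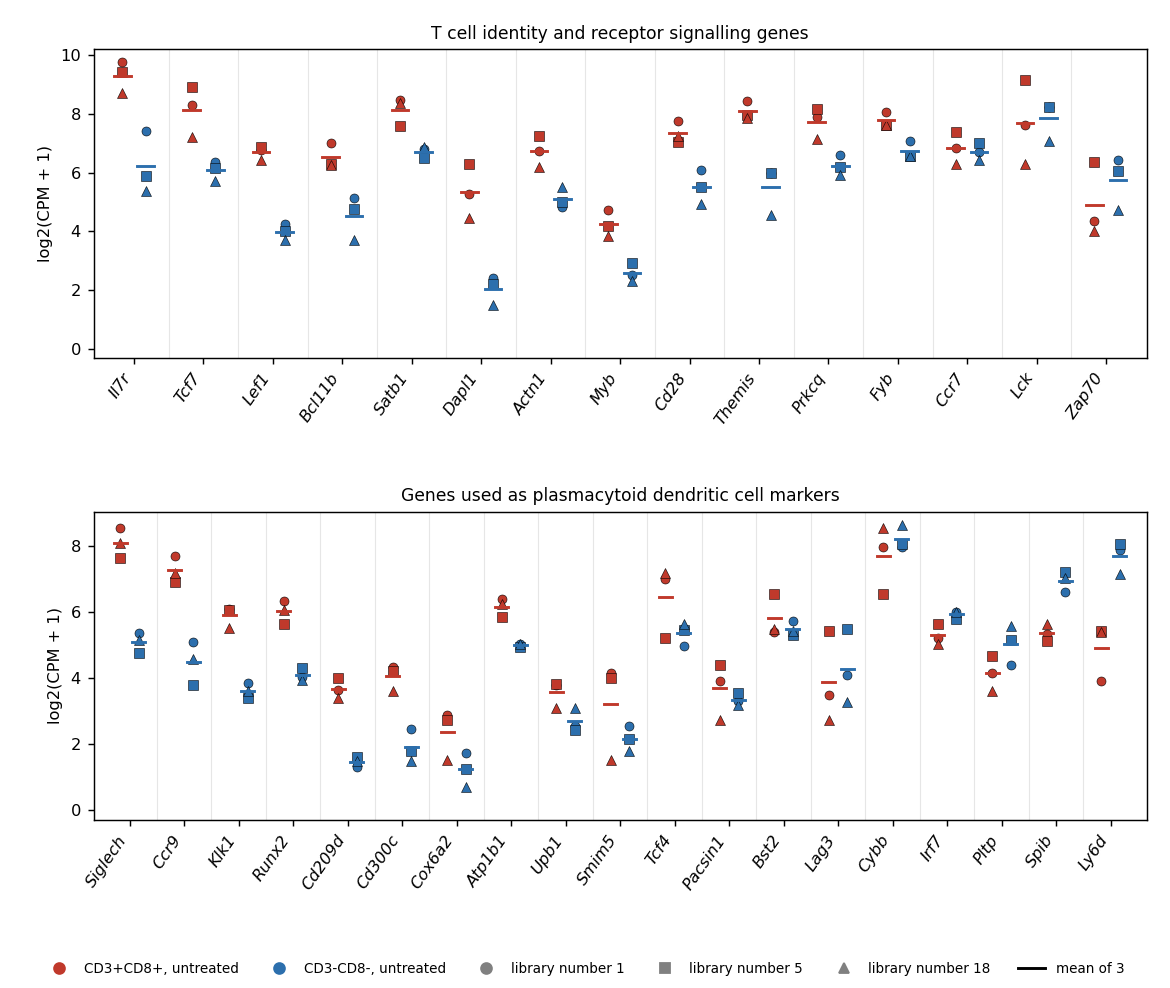
Levels, as log2(CPM + 1), of 15 T cell identity and receptor signalling genes (top) and of 19 genes used as plasmacytoid dendritic cell markers (bottom) in CD3+CD8+ (red) and CD3-CD8- (blue) libraries; symbols give the library number and bars the mean of 3. Il7r, Tcf7, Lef1, Dapl1 and Themis, and below them Siglech, Ccr9 and Runx2, separate the fractions in all libraries, while Lck, Zap70 and Ccr7 overlap.

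Of 24 cytotoxic genes tested, 1 was lower and none higher, against 2.47% and 2.3% of all genes. Among the 24, 8 had positive values and the median was -0.23. Gzmb, the gene of granzyme B, had 247, 341 and 232 CPM in CD3+CD8+ cells, against 659.7, 346 and 291 CPM in CD3-CD8- cells (log2 fold change -0.66 ± 0.46, adjusted p = 0.391). Gzma, the gene of granzyme A, had 264 to 747 CPM in CD3+CD8+ cells, against 725 to 1150.5 CPM in CD3-CD8- cells (log2 fold change -0.82 ± 0.46, adjusted p = 0.289). CD3-CD8- libraries reached as high as or higher than CD3+CD8+ libraries for both. Prf1, the gene of perforin, had 33.3, 76.4 and 26.4 CPM in CD3+CD8+ cells, against 87.5, 130.3 and 88.6 CPM in CD3-CD8- cells; the groups did not overlap, the adjusted p was 0.273, and with the block 0.0311. Ccl5, a chemokine of T and NK cells, had 399, 1096 and 262 CPM in CD3+CD8+ cells, against 551, 789.8 and 226 CPM in CD3-CD8- cells (log2 fold change 0.17 ± 0.68, adjusted p = 0.910). Gzmk, a further granzyme gene, had 37.8 to 215 CPM in CD3+CD8+ cells, against 19.1 to 134 CPM in CD3-CD8- cells (log2 fold change 0.71 ± 0.81, adjusted p = 0.619). The block called Gzmm (adjusted p = 0.0416) and Crtam (adjusted p = 0.0172) higher.

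The cytotoxic gene that passed was Gzmc, a granzyme of activated killer cells, with 0, 0.311 and 0 CPM in CD3+CD8+ cells, against 27.6, 6.72 and 9.0 CPM in CD3-CD8- cells. Over the 3 CD3+CD8+ libraries it had 3 counts, against 810 in CD3-CD8- cells, a ratio of 0.0236 with a 95% counting interval of 0.00486 to 0.0693 (adjusted p = 0.00856 by edgeR). The call held in all 6 fits that left out a library.

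The inhibitory receptor and exhaustion list had 22 tested genes and no call by edgeR; 11 were positive and the median was -0.00253. At an unadjusted p below 0.05, 4 were lower and none higher, against 23.6% of all genes in either direction. DESeq2 called none, and voom, limma's weighted fit of log counts, called 3 lower. Of all 12463 genes, DESeq2 called 1099 and voom 3622 in either direction. Pdcd1, the gene of PD-1, had 33.3, 97.9 and 11.3 CPM in CD3+CD8+ cells, against 27.5, 94.7 and 8.76 CPM in CD3-CD8- cells (log2 fold change 0.23 ± 0.82, adjusted p = 0.895). Both libraries numbered 5 were the highest of their fractions, so the spread between numbers was larger than that between fractions. Lag3 and Tigit, further inhibitory receptors, had log2 fold changes of -0.01 ± 0.73 and -0.11 ± 0.57. With the block, Ctla4 was higher (adjusted p = 0.0296) and Btla, which B cells also carry, was lower (adjusted p = 0.0258).

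Of 19 costimulatory genes, Cd28 was higher and 2 were lower, with a median of -0.20, and the block called 2 higher and 2 lower. Cd40, the receptor by which antigen-presenting cells receive T cell help, had 0, 1.04 and 15.1 CPM in CD3+CD8+ cells, against 33, 46.9 and 34.1 CPM in CD3-CD8- cells (log2 fold change -3.73 ± 0.80 (SE), adjusted p = 0.0175). Icosl, the ligand of ICOS, had 16.6, 6.85 and 45.3 CPM in CD3+CD8+ cells, against 71.4, 106 and 106 CPM in CD3-CD8- cells (log2 fold change -2.29 ± 0.52 (SE), adjusted p = 0.0216). Both were highest in CD3+CD8+ library 18 within their group, and neither overlapped. All 3 calls were lost without CD3+CD8+ library 1 and without CD3-CD8- library 5 or 18. None of 21 residency and egress genes passed by edgeR. At an unadjusted p below 0.05, 3 were higher and 2 lower, a share near the 23.6% of all genes. DESeq2 called 1 higher and 1 lower, and voom 4 higher and 1 lower, against 1099 and 3622 of all 12463 genes. With the block, Itgae (adjusted p = 0.0137) and S1pr1 (adjusted p = 0.0476) were among 3 that were higher. Zfp683, the gene of Hobit (adjusted p = 0.0151), was among 2 that were lower. Cxcr6, a chemokine receptor of liver T cells, had 249, 289 and 149 CPM in CD3+CD8+ cells, against 388, 187 and 130.3 CPM in CD3-CD8- cells (log2 fold change -0.03 ± 0.44, and 0.11 with the block). Of 13 helper and regulatory T cell genes, Ikzf2 was higher and Zbtb7b lower, and the block called 2 higher and 3 lower; Foxp3, the factor of regulatory T cells, had 0.104 to 1.89 CPM in CD3+CD8+ cells, against 2.87 to 4.61 CPM in CD3-CD8- cells, an adjusted p of 0.0584, and 0.0327 with the block.

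Of all the lists, the largest share of calls was in MHC class II presentation, by which professional antigen-presenting cells show peptides to CD4+ T cells. Of 15 genes tested, 11 were lower and none had a positive value, and the median was -2.44. The block called 14 lower, against 7.29% of all genes. Class II promoters are known for an X box, bound by the RFX complex, and a Y box, bound by NF-Y, with the coactivator CIITA joining them. The stretches just before the start of 6 of the class II genes that were lower are shown so that these letters can be seen beside the values; they come from RefSeq on GRCm38.p6 and are written along the gene's strand. Capitals mark GATTGG (or its reverse complement CCAATC), the core of the Y box, and AGCAAC, the core of the X box.
H2-Aa (chr17:34287824-34287973, minus strand): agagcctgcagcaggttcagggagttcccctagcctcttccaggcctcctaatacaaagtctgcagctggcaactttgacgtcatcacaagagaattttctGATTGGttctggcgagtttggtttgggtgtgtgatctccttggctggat
H2-Eb1 (chr17:34305717-34305866, plus strand): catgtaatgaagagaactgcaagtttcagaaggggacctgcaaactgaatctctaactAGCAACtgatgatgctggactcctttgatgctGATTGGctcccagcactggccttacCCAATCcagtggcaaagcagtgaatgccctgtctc
H2-DMb1 (chr17:34153041-34153190, plus strand): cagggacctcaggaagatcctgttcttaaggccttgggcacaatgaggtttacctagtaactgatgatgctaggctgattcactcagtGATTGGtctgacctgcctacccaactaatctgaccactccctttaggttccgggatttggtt
H2-DMb2 (chr17:34145099-34145248, plus strand): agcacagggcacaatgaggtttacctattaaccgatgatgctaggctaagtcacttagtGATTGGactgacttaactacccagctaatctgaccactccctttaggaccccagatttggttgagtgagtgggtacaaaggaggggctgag
H2-Oa (chr17:34092229-34092378, plus strand): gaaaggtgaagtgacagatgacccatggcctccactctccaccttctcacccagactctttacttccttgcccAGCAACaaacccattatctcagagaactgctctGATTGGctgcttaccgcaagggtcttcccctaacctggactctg
H2-Ob (chr17:34238755-34238904, plus strand): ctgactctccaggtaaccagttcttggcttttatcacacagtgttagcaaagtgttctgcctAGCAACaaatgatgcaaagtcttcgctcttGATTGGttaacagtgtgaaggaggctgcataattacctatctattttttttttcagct

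GATTGG lay 43 bases before the start in H2-Aa, 54 in H2-Eb1, 56 in H2-DMb1, 85 in H2-DMb2, 38 in H2-Oa and 52 in H2-Ob. AGCAAC stood ahead of it with 26 bases between them in H2-Eb1, 27 in H2-Oa and 24 in H2-Ob, and the exact letters were not found in the shown stretches of the other 3. Of the 15 listed genes, 12 had windows that were searched over 250 bases on both strands. GATTGG was found in 9, AGCAAC in 5 and both in 5. All 6 genes shown hold GATTGG, but not every lower gene did. H2-Eb2 and Rfx5 held both motifs and were not called in the main fit. Ifi30, called lower and not shown, held neither motif. H2-DMa, also lower and not shown, held GATTGG in only 1 of its windows, 193 bases before the start, and no AGCAAC. No window was searched for Cd74, H2-Ab1 and Ciita. Over all 32851 RefSeq windows of that length, 14.6% held GATTGG, 12.2% held AGCAAC and 1.96% held both. These shares are per window, while some of the 12 genes had more than 1 window. No match of GATTGG overlapped one of AGCAAC in the 6 stretches, and a match describes these letters only.

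Cd74, the invariant chain that guides class II molecules, had 271, 202 and 1237 CPM in CD3+CD8+ cells, against 3105, 4794 and 4254 CPM in CD3-CD8- cells (log2 fold change -2.84 ± 0.63 (SE), adjusted p = 0.0192). H2-Aa, an alpha chain, had 184, 164 and 865 CPM in CD3+CD8+ cells, against 1593, 2053 and 2333 CPM in CD3-CD8- cells (log2 fold change -2.31 ± 0.54 (SE), adjusted p = 0.0244). H2-Ab1, its beta chain, had 88.3, 58.7 and 278 CPM in CD3+CD8+ cells, against 990.2, 1349 and 992 CPM in CD3-CD8- cells (log2 fold change -3.0 ± 0.52 (SE), adjusted p = 0.00601). In each, CD3+CD8+ library 18 was several times higher than CD3+CD8+ libraries 1 and 5 and still below every CD3-CD8- library. H2-Eb1, a further beta chain, had 62.7 to 579.7 CPM in CD3+CD8+ cells, against 1113 to 1635 CPM in CD3-CD8- cells (log2 fold change -2.54 ± 0.68 (SE), adjusted p = 0.0429). The peptide loading chains were lower as well: H2-DMb1 had 5.12 to 22.7 CPM in CD3+CD8+ cells, against 56.1 to 68.4 CPM in CD3-CD8- cells (log2 fold change -2.59 ± 0.45 (SE), adjusted p = 0.00675) and H2-DMa 11.5 to 43.4 CPM in CD3+CD8+ cells, against 115 to 154 CPM in CD3-CD8- cells (log2 fold change -2.40 ± 0.47 (SE), adjusted p = 0.0125). H2-DMb2 had 3.63 to 71.8 CPM in CD3+CD8+ cells, against 170.2 to 269 CPM in CD3-CD8- cells (log2 fold change -3.11 ± 0.69 (SE), adjusted p = 0.0204). The modulators H2-Oa and H2-Ob had log2 fold changes of -2.45 ± 0.58 (adjusted p = 0.0266) and -2.07 ± 0.56 (adjusted p = 0.0452).

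Ciita, the coactivator itself, had 11.5, 3.63 and 51 CPM in CD3+CD8+ cells, against 100.4, 136 and 118 CPM in CD3-CD8- cells (log2 fold change -2.76 ± 0.73 (SE), adjusted p = 0.0417). Ifi30, a lysosomal thiol reductase, had 17.3 to 39.7 CPM in CD3+CD8+ cells, against 64.1 to 84.1 CPM in CD3-CD8- cells (log2 fold change -1.60 ± 0.38 (SE), adjusted p = 0.0275). Rfx5, a subunit of the RFX complex, had 10.2, 11.4 and 13.2 CPM in CD3+CD8+ cells, against 15.5, 20.7 and 21.4 CPM in CD3-CD8- cells (log2 fold change -0.74 ± 0.28 (SE), adjusted p = 0.124), and the groups did not overlap. Ctss, the protease that trims the invariant chain, had 188 to 444 CPM in CD3+CD8+ cells, against 481 to 693 CPM in CD3-CD8- cells, with an adjusted p of 0.120, and 0.0263 with the block. Of the 11 calls, H2-Ab1 and H2-DMb1 held in all 6 fits that left out a library; 2, 6 and 11 calls remained without CD3+CD8+ library 1, 5 or 18, and 8, 2 and 3 without CD3-CD8- library 1, 5 or 18. With CD3+CD8+ library 5 alone the median of the list was -3.68.

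All B cell markers tested had negative values, and a part of them passed. Of 24 tested, 8 were lower, and the median was -2.46. In 22, all CD3+CD8+ libraries lay below all CD3-CD8- libraries, against 14.8% of all genes. With the block all 24 were lower, against 7.29% of all genes. Ighm, the constant region of IgM, had 315, 363 and 1225 CPM in CD3+CD8+ cells, against 1688, 2856 and 2769.5 CPM in CD3-CD8- cells (log2 fold change -1.95 ± 0.49 (SE), adjusted p = 0.0338). Cd22, an inhibitory coreceptor, had 7.68, 3.53 and 86.9 CPM in CD3+CD8+ cells, against 151, 241 and 237 CPM in CD3-CD8- cells (log2 fold change -2.95 ± 0.76 (SE), adjusted p = 0.0370). Pou2af1, a coactivator of immunoglobulin genes, had 7.68, 4.15 and 102 CPM in CD3+CD8+ cells, against 181, 257 and 241 CPM in CD3-CD8- cells (log2 fold change -2.81 ± 0.75 (SE), adjusted p = 0.0429). For all 3 genes CD3+CD8+ library 18 was the highest of its group, and every CD3+CD8+ library lay below every CD3-CD8- library. Cd37, a tetraspanin, had 35.8, 68.3 and 35.9 CPM in CD3+CD8+ cells, against 199, 220.1 and 149 CPM in CD3-CD8- cells (log2 fold change -1.97 ± 0.39 (SE), adjusted p = 0.0123), low in library 18 as well. Vpreb3 had 3 counts over the CD3+CD8+ libraries, against 1342 in CD3-CD8- cells, a ratio of 0.0143 with a 95% counting interval of 0.00294 to 0.0417 (adjusted p = 0.00932 by edgeR).

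Markers that define B cells had larger spreads. Cd79b had 39.7, 16.2 and 404 CPM in CD3+CD8+ cells, against 638, 897 and 931 CPM in CD3-CD8- cells (log2 fold change -2.47 ± 0.79, adjusted p = 0.0773, and 0.0129 with the block). Ms4a1 had a log2 fold change of -2.15 ± 0.92, an adjusted p of 0.172, and 0.0301 with the block; with CD3+CD8+ library 5 alone it was -7.58. The Cd79a value was -2.94 ± 0.95, with an adjusted p of 0.0799, and 0.0290 with the block. The median of the list with CD3+CD8+ library 5 alone was -6.14. None of the 8 calls held without CD3+CD8+ library 1, and 2 and 3 held without CD3-CD8- library 5 or 18.

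B cell receptor signalling genes gave 7 lower of 20 tested, no positive value and a median of -2.07. The block called 17 lower, against 7.29% of all genes. Pik3ap1, the adaptor BCAP, had 29.4, 22.8 and 24.5 CPM in CD3+CD8+ cells, against 67.9, 76.8 and 75.7 CPM in CD3-CD8- cells (log2 fold change -1.54 ± 0.22 (SE), adjusted p = 0.00224). Cd72, an inhibitory coreceptor, had 24.3, 22.8 and 26.4 CPM in CD3+CD8+ cells, against 79.6, 87.5 and 82.7 CPM in CD3-CD8- cells (log2 fold change -1.78 ± 0.29 (SE), adjusted p = 0.00424). Unlike most B cell genes, both were nearly equal in the 3 CD3+CD8+ libraries, and both held in all 6 fits that left out a library. Syk, the kinase that takes the place of Zap70 in B and myeloid cells, had 47.3, 22 and 187 CPM in CD3+CD8+ cells, against 310.2, 459 and 446 CPM in CD3-CD8- cells (log2 fold change -2.32 ± 0.58 (SE), adjusted p = 0.0330). Plcg2, the phospholipase of the same cascade, had 25.6, 13.2 and 54.8 CPM in CD3+CD8+ cells, against 115, 141 and 133 CPM in CD3-CD8- cells (log2 fold change -2.20 ± 0.42 (SE), adjusted p = 0.0115). Cd81, a member of the B cell coreceptor complex, was also lower, with a log2 fold change of -2.66 ± 0.73. Of the 7 calls, 2 remained without CD3+CD8+ library 1, and 2 and 3 without CD3-CD8- library 5 or 18.

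Plasma cell genes gave 4 lower of 13, with a median of -2.81. Mzb1, a chaperone of antibody secretion, had 10.2, 3.42 and 24.5 CPM in CD3+CD8+ cells, against 57, 84.7 and 70.5 CPM in CD3-CD8- cells (log2 fold change -2.86 ± 0.57 (SE), adjusted p = 0.0133). Sdc1, the gene of CD138, had 0, 1.25 and 0 CPM in CD3+CD8+ cells, against 5.75, 9.58 and 7.72 CPM in CD3-CD8- cells (log2 fold change -3.06 ± 0.66 (SE), adjusted p = 0.0183). None of the 4 calls remained without CD3+CD8+ library 1 or without CD3-CD8- library 5. Igha, the constant region of IgA, had 21.8, 16.8 and 94.4 CPM in CD3+CD8+ cells, against 89.1, 1164 and 566 CPM in CD3-CD8- cells; CD3-CD8- library 1 overlapped with CD3+CD8+ library 18, the adjusted p was 0.0870, and with the block it was 0.0312. Of 162 immunoglobulin variable segments tested, 29 were lower and none higher, against 2.47% and 2.3% of all genes. Of these segments 1 had a positive value, and their median was -3.85.

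**Figure D5:**
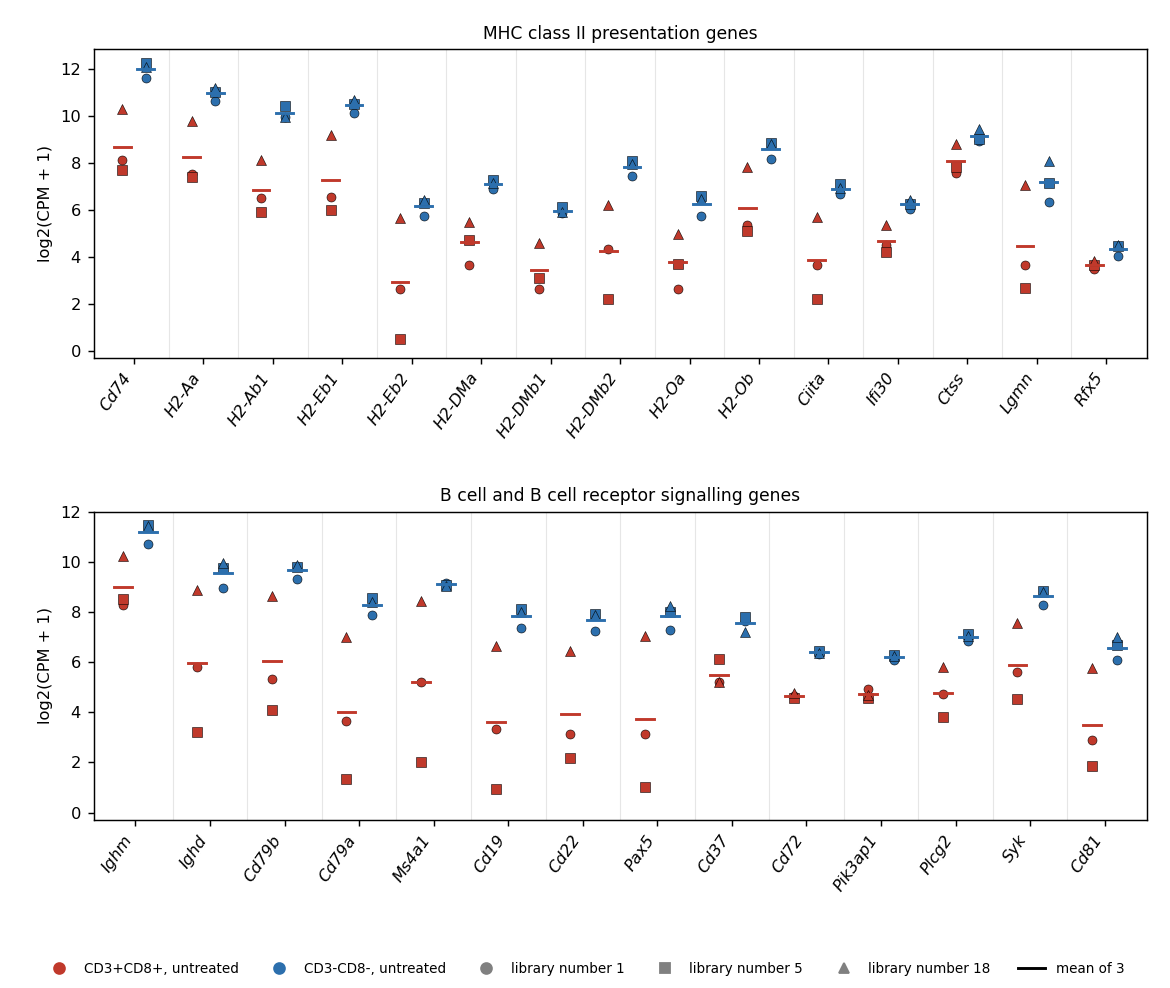
Levels, as log2(CPM + 1), of 15 MHC class II presentation genes (top) and 14 B cell and B cell receptor signalling genes (bottom) in CD3+CD8+ (red) and CD3-CD8- (blue) libraries; symbols give the library number and bars the mean of 3. Triangles of CD3+CD8+ library 18 lie above the other CD3+CD8+ libraries for most genes, as for Cd74 with 1237 CPM, and Cd72 and Pik3ap1 show a narrow spread in both fractions.

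NK cell and ILC1 markers had mostly negative values, but none of 19 passed. Of these, 3 were positive and the median was -1.36. In 12, all CD3+CD8+ libraries lay below all CD3-CD8- libraries, against 14.8% of all genes. At an unadjusted p below 0.05, 9 were lower and 1 higher, against 23.6% of all genes in either direction. The block called 8 lower and 1 higher, against 7.29% and 5.34% of all genes. DESeq2 called 2 lower, and voom 8 lower and 1 higher, against 1099 and 3622 of all 12463 genes in either direction. Klrb1c, the gene of NK1.1, had 42.2, 24 and 172 CPM in CD3+CD8+ cells, against 322, 179.9 and 264 CPM in CD3-CD8- cells (log2 fold change -1.76 ± 0.72, adjusted p = 0.154, and 0.00753 with the block). Tyrobp, the adaptor DAP12 of activating receptors, had 78, 88.3 and 102 CPM in CD3+CD8+ cells, against 297, 238 and 276 CPM in CD3-CD8- cells (log2 fold change -1.60 ± 0.48, adjusted p = 0.0657, and 0.0403 with the block). Klrd1 and Klrk1, receptors that CD8+ T cells also carry, had 289, 273 and 206 CPM in the CD3+CD8+ libraries and 234, 149 and 133 CPM in the CD3-CD8- libraries for Klrd1 and 207, 191 and 276 CPM in the CD3+CD8+ libraries and 350.1, 173 and 181 CPM in the CD3-CD8- libraries for Klrk1. Those overlapped between the fractions. Of 8 gamma-delta and NKT cell genes none passed by edgeR, 4 were lower at an unadjusted p below 0.05, the block called 2 lower, DESeq2 and voom each 1 lower, and the median was -1.43; Zbtb16, the factor PLZF of innate-like T cells, had 0.415 to 3.78 CPM in CD3+CD8+ cells, against 4.22 to 9.76 CPM in CD3-CD8- cells (adjusted p = 0.145).

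Macrophage genes were mostly negative, with wide spreads. Of 20 Kupffer cell markers, 1 was lower, 1 had a positive value and the median was -2.25. The block called 15 lower, against 7.29% of all genes. C1qa, a chain of complement C1q, had 5.12, 2.08 and 30.2 CPM in CD3+CD8+ cells, against 49.5, 89.2 and 114 CPM in CD3-CD8- cells (log2 fold change -3.28 ± 0.81 (SE), adjusted p = 0.0315), and held in 2 of the 6 fits that left out a library. Clec4f, a lectin found on Kupffer cells, had 11.5, 2.49 and 60.4 CPM in CD3+CD8+ cells, against 64.4, 75.8 and 197 CPM in CD3-CD8- cells (log2 fold change -2.51 ± 1.12, adjusted p = 0.188, and 0.00405 with the block). Both libraries numbered 18 were the highest of their fractions for these genes. Of 24 monocyte and macrophage markers, 1 was higher and 1 lower, and the block called 12 lower, against 7.29% of all genes. Apoe had 19.2, 12.3 and 83.1 CPM in CD3+CD8+ cells, against 233, 405 and 512 CPM in CD3-CD8- cells (log2 fold change -3.48 ± 0.83 (SE), adjusted p = 0.0271), and kept its call in 2 of the 6 fits that left out a library. Lyz2, the gene of lysozyme, had 42.4 to 627 CPM in CD3+CD8+ cells, against 670.3 to 1089 CPM in CD3-CD8- cells, with an adjusted p of 0.183, and 0.0366 with the block.

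The member that was higher was Ly6c2, which memory CD8+ T cells carry as well as monocytes. It had 372, 503 and 209.6 CPM in CD3+CD8+ cells, against 31.1, 32.3 and 28.7 CPM in CD3-CD8- cells (log2 fold change 3.56 ± 0.50 (SE), adjusted p = 0.00208). CD3-CD8- libraries stayed within 28.7 to 32.3 CPM and every CD3+CD8+ library lay far above them.

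Neutrophil genes varied by library. S100a9, a calcium-binding protein abundant in neutrophils, had 376, 17.8 and 378 CPM in CD3+CD8+ cells, against 54.8, 78.8 and 394 CPM in CD3-CD8- cells (log2 fold change 0.53 ± 1.25, adjusted p = 0.832). It was high in CD3+CD8+ libraries 1 and 18 and CD3-CD8- library 18 and low in the rest, so fractions overlapped. Mmp9, a matrix metalloprotease, was the 1 of 20 that was lower, with 2.56, 0.726 and 13.2 CPM in CD3+CD8+ cells, against 43.8, 20.0 and 36.4 CPM in CD3-CD8- cells (log2 fold change -3.68 ± 0.94 (SE), adjusted p = 0.0354). It kept its call in 1 of the 6 fits that left out a library, the one without CD3+CD8+ library 18.

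Conventional dendritic cell markers gave 4 lower of 18, with a median of -1.92, and the block called 7 lower and 1 higher. Naaa, an amidase of these cells, had 7.68, 7.89 and 7.55 CPM in CD3+CD8+ cells, against 39.4, 32.9 and 31.7 CPM in CD3-CD8- cells (log2 fold change -2.16 ± 0.41 (SE), adjusted p = 0.0106), nearly equal in the 3 CD3+CD8+ libraries, and held in all 6 fits that left out a library. Ccl22, a chemokine that draws regulatory T cells, had 1.28, 0.104 and 3.78 CPM in CD3+CD8+ cells, against 9.42, 8.21 and 12.3 CPM in CD3-CD8- cells (log2 fold change -4.05 ± 0.92 (SE), adjusted p = 0.0219). Fscn1, the gene of fascin, had 1 count over the CD3+CD8+ libraries, against 554 in CD3-CD8- cells, a ratio of 0.0115 with a 95% counting interval of 0.000291 to 0.0644 (adjusted p = 0.0160 by edgeR). Ffar2, a receptor for short-chain fatty acids, was called lower with no count in CD3+CD8+ cells, against 2.14, 1.28 and 1.35 CPM in CD3-CD8- cells. Those levels lie under the worth of 3 counts in CD3+CD8+ libraries 1 and 18, so these 2 libraries could not show a difference. Of the 4 calls, 2 and 1 remained without CD3+CD8+ library 1 or 5, and 1 and 2 without CD3-CD8- library 5 or 18. Irf8, a factor of dendritic cells and B cells, had 126 to 189 CPM in CD3+CD8+ cells, against 165 to 191 CPM in CD3-CD8- cells (adjusted p = 0.778).

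Mast cell and basophil genes were at or near 0 in CD3+CD8+ cells. Of 11, 2 were lower and none had a positive value; the block called 8 lower, and the median was -3.55 with genes at 0 counts set at their bound. Fcer1a, the alpha chain of the IgE receptor, had no count in CD3+CD8+ cells, against 18.9, 3.69 and 5.25 CPM in CD3-CD8- cells, and was at least 26.4-fold lower, taken against a floor of 3 counts over the group, 0.274 CPM (adjusted p = 0.0338 by edgeR). Its call held in 1 of the 6 fits that left out a library. Its levels in CD3-CD8- libraries 5 and 18 lay under the 5.67 CPM that 3 counts were worth in CD3+CD8+ library 18. The bound thus rests mostly on CD3+CD8+ library 5, where 3 counts were worth 0.311 CPM. Il6, the gene of the cytokine interleukin-6, was called lower with no count in CD3+CD8+ cells, against 2.61, 2.10 and 1.67 CPM in CD3-CD8- cells, again under the worth of 3 counts in CD3+CD8+ libraries 1 and 18. Cpa3, a mast cell protease, had 3.84, 1.56 and 1.89 CPM in CD3+CD8+ cells, against 68.7, 5.65 and 9.31 CPM in CD3-CD8- cells, with an adjusted p of 0.0946, and 0.0278 with the block. CD3-CD8- library 1 was the highest for Fcer1a and Cpa3.

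Innate sensing and uptake genes had more calls when libraries were compared within their number, and so had all genes tested. Over all genes, lower calls rose from 2.47% to 7.29% with the block. Of 20 Toll-like receptors and adaptors, 3 were lower, with a median of -1.43, and the block called 11 lower. Unc93b1, which carries Toll-like receptors to endosomes, had 23, 24.6 and 45.3 CPM in CD3+CD8+ cells, against 105, 148 and 137 CPM in CD3-CD8- cells (log2 fold change -2.12 ± 0.44 (SE), adjusted p = 0.0154). Tlr11 and Ticam2 had 2 and 3 counts over the CD3+CD8+ libraries, against 280 and 254 in CD3-CD8- cells, with ratios of 0.0455 and 0.0753 and 95% counting intervals of 0.00549 to 0.166 and 0.0154 to 0.223. Tlr11 held in none and Ticam2 in 1 of the 6 fits that left out a library, and none of the 3 calls remained without CD3+CD8+ library 1 or without CD3-CD8- library 5 or 18. Of 14 Fc receptors and adaptors, Fcer1a and Fcrla were lower and none had a positive value, and the block called 11 lower. Of 20 complement and scavenger genes, C1qa and the anaphylatoxin receptor gene C3ar1, with 0.830 to 5.66 CPM in CD3+CD8+ cells, against 7.88 to 26.7 CPM in CD3-CD8- cells (log2 fold change -3.17 ± 0.83 (SE), adjusted p = 0.0401), were lower, and the block called 12 lower. Of 25 lysosomal genes 1 was lower and none higher, and the block called 9 lower and 1 higher. The calls of these 3 lists were also lost without CD3+CD8+ library 1 and without CD3-CD8- library 5 or 18.

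Markers of plasmacytoid dendritic cells went the other way. These cells are CD3- and known for type I interferon, yet 5 of their 19 markers tested were higher in CD3+CD8+ cells and 1 was lower; 13 had positive values, and the median was 1.19. The summed level was 1425, 991 and 1341 CPM in CD3+CD8+ libraries, against 925, 1017 and 1019 CPM in CD3-CD8- libraries. Siglech, a lectin that defines these cells in mice, had 369.8, 200.3 and 272 CPM in CD3+CD8+ cells, against 40.0, 26.3 and 34.4 CPM in CD3-CD8- cells (log2 fold change 3.06 ± 0.67 (SE), adjusted p = 0.0184). Every CD3+CD8+ library lay well above every CD3-CD8- library. In untreated CD3+CD8- libraries 5 and 18, which are outside this comparison, Siglech had 214 and 423 CPM, and in the library labelled CD3+CD8- 6, whose CD8 genes go against its label, it had 46.4 CPM.

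Ccr9, a gut homing receptor of plasmacytoid dendritic cells and of some T cells, had 209, 119.6 and 144 CPM in CD3+CD8+ cells, against 33, 13 and 23.1 CPM in CD3-CD8- cells (log2 fold change 2.77 ± 0.58 (SE), adjusted p = 0.0159). Runx2, a factor these cells need to leave the bone marrow, had 80.6, 49 and 66.1 CPM in CD3+CD8+ cells, against 15.4, 18.7 and 14.5 CPM in CD3-CD8- cells (log2 fold change 1.99 ± 0.30 (SE), adjusted p = 0.00277) and held in all 6 fits that left out a library. Klk1, a kallikrein protease gene, had 45.3 to 67.8 CPM in CD3+CD8+ cells, against 9.55 to 13.4 CPM in CD3-CD8- cells (log2 fold change 2.40 ± 0.63 (SE), adjusted p = 0.0398). Cd209d, a lectin gene, had 9.44 to 15 CPM in CD3+CD8+ cells, against 1.47 to 2.06 CPM in CD3-CD8- cells (log2 fold change 2.80 ± 0.74 (SE), adjusted p = 0.0413). None of these overlapped. The block called 9 higher, among them Cd300c (adjusted p = 0.00963), Cox6a2 (adjusted p = 0.0354) and Atp1b1 (adjusted p = 0.0225). Not all followed: Tcf4, the master factor of the lineage, had 128, 36.3 and 144 CPM in CD3+CD8+ cells, against 30.6, 43.3 and 48.9 CPM in CD3-CD8- cells (log2 fold change 1.28 ± 0.56, adjusted p = 0.177), high in CD3+CD8+ libraries 1 and 18 and not in 5. Irf7 had 32.1 to 48.3 CPM in CD3+CD8+ cells, against 54.8 to 63.3 CPM in CD3-CD8- cells (adjusted p = 0.118), and Spib had 33.8 to 49.1 CPM in CD3+CD8+ cells, against 96.1 to 149 CPM in CD3-CD8- cells, with an adjusted p of 0.0642, and 0.00405 with the block. Ly6d, which B cells also carry, was the member that was lower, with 14.1, 42 and 41.5 CPM in CD3+CD8+ cells, against 234, 265 and 142 CPM in CD3-CD8- cells (log2 fold change -2.69 ± 0.60 (SE), adjusted p = 0.0201). Of the 6 calls, 1 remained without CD3+CD8+ library 1, and 3, 1 and 2 without CD3-CD8- library 1, 5 or 18, and whether the cells that gave these transcripts were inside the CD3+CD8+ gate was not tested.

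Among 33 cytokine receptor genes, 2 were higher and 2 lower, and the block called 3 higher and 10 lower. Beside Il7r stood Il6st, the gene of gp130, with 173, 90.9 and 69.9 CPM in CD3+CD8+ cells, against 30.5, 30.5 and 30.5 CPM in CD3-CD8- cells (log2 fold change 1.86 ± 0.29 (SE), adjusted p = 0.00349). All CD3-CD8- libraries gave nearly the same level, and every CD3+CD8+ library lay clearly above it. Ifngr2, a chain of the interferon gamma receptor, had 11.5, 12.6 and 15.1 CPM in CD3+CD8+ cells, against 31.5, 39.8 and 36.3 CPM in CD3-CD8- cells (log2 fold change -1.48 ± 0.38 (SE), adjusted p = 0.0351). Tnfrsf13c, the BAFF receptor that keeps B cells alive, had 12.8, 3.94 and 37.8 CPM in CD3+CD8+ cells, against 62.4, 86.8 and 87.9 CPM in CD3-CD8- cells (log2 fold change -2.45 ± 0.52 (SE), adjusted p = 0.0169). Il18r1, a receptor chain of memory T and NK cells, had 117 to 173 CPM in CD3+CD8+ cells, against 43.7 to 73.4 CPM in CD3-CD8- cells, with an adjusted p of 0.0752, and 0.00690 with the block. Of 15 chemokine receptors, Ccr9 was higher and Cxcr5 lower, and the block called 1 higher and 3 lower. The liver homing receptor gene Cxcr3 had 26.4 to 91.6 CPM in CD3+CD8+ cells, against 39.9 to 138 CPM in CD3-CD8- cells (adjusted p = 0.563).

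Cell cycle genes had mostly positive values without passing: none of 30 was called, 28 had positive values, and the median was 0.58. In 10, all CD3+CD8+ libraries lay above all CD3-CD8- libraries, against 17.1% of all genes. Within library numbers 1, 5 and 18 the median was 0.10, 0.87 and -0.12, with number 5 the one well above 0. At an unadjusted p below 0.05, 5 were higher and none lower, against 23.6% of all genes in either direction. The block called 5 higher, against 5.34% of all genes. DESeq2 called 1 higher and voom 5, against 470 and 2075 of all 12463 genes. Mki67, the proliferation antigen gene, had 202, 93.3 and 113 CPM in CD3+CD8+ cells, against 56.5, 57.6 and 51 CPM in CD3-CD8- cells (log2 fold change 1.30 ± 0.46, adjusted p = 0.109, and 0.0258 with the block). Kif11, a spindle motor, had 43.5, 30.2 and 28.3 CPM in CD3+CD8+ cells, against 11.4, 11.5 and 7.80 CPM in CD3-CD8- cells (log2 fold change 1.72 ± 0.52, adjusted p = 0.0658, and 0.00609 with the block). The replication clamp gene Pcna had 92.5 to 193 CPM in CD3+CD8+ cells, against 106 to 176 CPM in CD3-CD8- cells (log2 fold change 0.09 ± 0.37).

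Of 30 interferon-stimulated genes, 1 was higher and none lower, with a median of 0.27, and the block called 3 higher and 1 lower. That was Mx1, an antiviral GTPase, with 44.8, 37.7 and 41.5 CPM in CD3+CD8+ cells, against 19.4, 17.3 and 18.6 CPM in CD3-CD8- cells (log2 fold change 1.15 ± 0.23 (SE), adjusted p = 0.0149); its call held in 2 of the 6 fits that left out a library. Isg15, which is attached to proteins in the interferon response, had 5.66 to 22.9 CPM in CD3+CD8+ cells, against 19.7 to 27.5 CPM in CD3-CD8- cells (log2 fold change -0.71 ± 0.49), the other way. Of 22 immediate-early genes, Atf3 was lower, with 0.726 to 3.78 CPM in CD3+CD8+ cells, against 9.46 to 12.9 CPM in CD3-CD8- cells (log2 fold change -3.26 ± 0.88 (SE), adjusted p = 0.0440), a call held in 1 of the 6 fits that left out a library; the block called 1 higher and 4 lower. Cd69, an early activation antigen that also marks residency, had 345, 198 and 157 CPM in CD3+CD8+ cells, against 158, 85.2 and 50.8 CPM in CD3-CD8- cells, with an adjusted p of 0.170, and 0.0126 with the block. Of 20 glycolysis genes, Slc16a1 was higher and Hk3 and Slc16a3 lower, and the block called 1 higher and 5 lower. The lactate carriers Slc16a1 and Slc16a3 thus moved in opposite directions: Slc16a1 had 48.6, 50.4 and 34 CPM in CD3+CD8+ cells, against 12.5, 12.7 and 9.95 CPM in CD3-CD8- cells (log2 fold change 1.94 ± 0.40 (SE), adjusted p = 0.0149). Slc16a3 had 0, 1.35 and 1.89 CPM in CD3+CD8+ cells, against 5.61, 6.64 and 7.96 CPM in CD3-CD8- cells (log2 fold change -2.47 ± 0.61 (SE), adjusted p = 0.0309).

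Some lists held no call in the main edgeR fit. Of all 12463 genes, 23.6% passed an unadjusted p of 0.05 in either direction. DESeq2 called 470 of them higher and 629 lower, and voom 2075 higher and 1547 lower. The block called 5.34% higher and 7.29% lower. Of 16 MHC class I genes 1 was higher and 1 lower at an unadjusted p below 0.05, DESeq2 called none, and voom called 1 higher and 5 lower. B2m, the light chain of class I, had 2271 to 3794 CPM in CD3+CD8+ cells, against 2019 to 3440.4 CPM in CD3-CD8- cells (log2 fold change 0.18 ± 0.39). Of 8 GIMAP GTPase genes 1 was lower at an unadjusted p below 0.05 and 1 by voom, with none by DESeq2 and 1 by the block. Of 11 erythroid and platelet genes 3 were lower at an unadjusted p below 0.05, none by DESeq2, 1 by voom and 4 by the block. Of 10 endothelial and stellate cell genes 1 was lower at an unadjusted p below 0.05 1 by DESeq2 and 1 by the block, and voom called 1 higher and 1 lower. None of 20 hepatocyte genes passed an unadjusted p of 0.05, DESeq2 or voom, and the block called 1 lower; their summed level was 1077, 203 and 4258 CPM in CD3+CD8+ libraries, against 512, 485 and 4103 CPM in CD3-CD8- libraries, and both libraries numbered 18 held the most. None of 62 ribosomal protein genes passed an unadjusted p of 0.05 or DESeq2, and voom called 1 higher and 23 lower. Of 15 genes of the mitochondrial genome, all had positive values, and 2 were higher at an unadjusted p below 0.05. DESeq2 called 2 higher and voom 3. With CD3+CD8+ library 5 alone, set against all CD3-CD8- libraries, their median was -1.39. Within library numbers 1, 5 and 18 the median was 0.886, 0.201 and 0.555.

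The largest folds of all stood with small RNA genes (snoRNA, snRNA, rRNA and miRNA). Of 48 tested, 18 were higher, against 2.3% of all genes, and 48 were positive, with a median of 7.08. With CD3+CD8+ library 5 alone the median was -1.0. Snora23, a small nucleolar RNA, had 1549, 0.104 and 517 CPM in CD3+CD8+ cells, against 2.47, 0.946 and 1.19 CPM in CD3-CD8- cells. It was high in CD3+CD8+ libraries 1 and 18, those rich in ribosomal and mitochondrial counts, and lowest of all in library 5; the part of those counts in these calls was not tested.

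Among named genes whose groups did not overlap and whose average log2 CPM was 3 or more, several of the largest differences were in genes that no list held. Tdrp had 40.9, 55.2 and 28.3 CPM in CD3+CD8+ cells, against 2.61, 1.92 and 2.39 CPM in CD3-CD8- cells (log2 fold change 4.22 ± 0.53 (SE), adjusted p = 0.00143). Nsg2, a gene best known from neurons, had 97.2, 137 and 64.2 CPM in CD3+CD8+ cells, against 7.22, 5.77 and 4.54 CPM in CD3-CD8- cells (log2 fold change 4.12 ± 0.38 (SE), adjusted p = 9.91e-05), the smallest adjusted p of the 20 genes with the largest folds. St8sia1, the sialyltransferase of ganglioside GD3, had 47.3, 28.9 and 52.9 CPM in CD3+CD8+ cells, against 5.35, 2.53 and 2.39 CPM in CD3-CD8- cells (log2 fold change 3.61 ± 0.58 (SE), adjusted p = 0.00405). CD3-CD8- levels of these genes were low and even. Havcr1, the gene of TIM-1, had 15 to 37.1 CPM in CD3+CD8+ cells, against 2.72 to 3.74 CPM in CD3-CD8- cells (log2 fold change 2.99 ± 0.61 (SE), adjusted p = 0.0149), Bend4 17.8 to 34 CPM in CD3+CD8+ cells, against 2.47 to 5.08 CPM in CD3-CD8- cells (log2 fold change 2.91 ± 0.56 (SE), adjusted p = 0.0119) and Fgf13 32.1 to 37.1 CPM in CD3+CD8+ cells, against 3.98 to 5.79 CPM in CD3-CD8- cells (log2 fold change 2.81 ± 0.32 (SE), adjusted p = 0.000786). The remaining 4 were Dapl1, Ly6c2, Siglech and Il7r.

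Of the 10 largest in the other direction, Mmp9, Apoe, C1qa and H2-DMb2 were described with their lists. Cma1, a mast cell chymase, had 3.84, 0.415 and 3.78 CPM in CD3+CD8+ cells, against 72.2, 23.5 and 22.7 CPM in CD3-CD8- cells (log2 fold change -4.96 ± 1.13 (SE), adjusted p = 0.0217). Cyp4f18, an enzyme of leukotriene breakdown, had 1.28, 0.623 and 13.2 CPM in CD3+CD8+ cells, against 51.7, 77.5 and 57.7 CPM in CD3-CD8- cells (log2 fold change -4.77 ± 0.86 (SE), adjusted p = 0.00789). Cxcl16, the ligand of Cxcr6, had 1.28, 0.726 and 13.2 CPM in CD3+CD8+ cells, against 21.2, 22.7 and 40.3 CPM in CD3-CD8- cells (log2 fold change -3.44 ± 0.85 (SE), adjusted p = 0.0328). Treml4 had 1.45 to 13.2 CPM in CD3+CD8+ cells, against 29.6 to 53.7 CPM in CD3-CD8- cells (log2 fold change -3.28 ± 0.73 (SE), adjusted p = 0.0201), Hfe, a regulator of iron uptake, 1.14 to 11.3 CPM in CD3+CD8+ cells, against 25.8 to 38.9 CPM in CD3-CD8- cells (log2 fold change -3.17 ± 0.67 (SE), adjusted p = 0.0160), and Itgb5, the beta chain of an integrin, 1.45 to 13.2 CPM in CD3+CD8+ cells, against 17.2 to 45.5 CPM in CD3-CD8- cells (log2 fold change -3.17 ± 0.70 (SE), adjusted p = 0.0199). The rule that picked these 6 genes left out any whose groups overlapped, so their lack of overlap is no result. Of the 6 fits that left out a library, Cyp4f18 kept its call in 5 and Hfe in 4. Cma1, Cxcl16 and Itgb5 kept theirs in 2 each. In CD3+CD8+ libraries 1 and 18 a single count was worth more than 1 CPM, so the lowest of these levels rest on few counts.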

How the data were processed

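The authors deposited whole-number read counts per gene for 48440 identifiers; 18 of its columns were read here and 22 were not. The authors' FPKM table gave symbols, positions and 1 alternative. Tools named in the submitters' processing notes, with no role, are Cufflinks 2.2.1, DESeq2 3.20, HTSeq 0.13.5 and Trim Galore 0.6.7; which aligner and build were used is not given in the sources used here. Positions start as in GRCm38 annotation for 99.99% of shared identifiers. Per the labels' protocols, RNA came from a low-input RNeasy kit and libraries from TruSeq v2, which does not keep strand unless modified, so overlapping genes may share counts.

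The counts of all 18 libraries were fitted as 6 groups with edgeR 4.0.16 (R 4.3.3): filterByExpr on the 6 libraries compared, TMM scaling, the two-sided quasi-likelihood F-test of CD3+CD8+ minus CD3-CD8-, and Benjamini-Hochberg adjustment over 12463 genes. SE is the absolute log2 fold change over the square root of F. Log2 CPM deviations of same-numbered libraries from their group means correlated at 0.203, 0.335 and 0.578 for numbers 1, 5 and 18 (7996 genes), and at -0.456 to 0.265 between unlike numbers, the highest being CD3+CD8+ 5 with CD3-CD8- 1. The rule for pairing, a correlation over 0.1 for each of the 3 numbers, was met. The labels do not tie numbers to mice, so the main fit held no block. A fit with the number as a block stands beside list counts it moves by over 1.5 times. Alternatives were other scalings, filters and designs, a GC correction, limma 3.58.1, DESeq2 1.42.0, and leaving out each library. Fits were checked on simulated counts. Ratios of genes with 1 to 3 counts carry exact 95% intervals, and bounds a floor of 3 counts; both cover counting error only.

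The members and the 39 lists were chosen with earlier results of these data known. Genes named by rule are 27 fixed genes, the 10 called genes of largest fold in each direction whose groups do not overlap and whose average log2 CPM is 3 or more (unnamed gene models, ribosomal RNA and receptor variable segments left out), and, per list, up to 4 called members and 1 uncalled member of highest level. Other genes are examples chosen after their values were seen. Some list members counted here are not reported by name.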

Additional observations from a re-analysis of the deposited data

How the results depend on the processing

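The counts of genes higher and lower in CD3+CD8+ cells, 287 and 308, moved by more than 1.5 times under these settings: library totals alone (42 and 1049), DESeq2 in full (470 and 629), voom with quality weights (2075 and 1547), only the 6 libraries compared (70 and 99), the replicate block (665 and 909), limma on log2(FPKM + 1) (57 and 1332). The higher count alone moved with only the 6 libraries and the replicate block (172) and without both ribosomal-rich CD3+CD8+ libraries (98), and the lower count alone moved with no filter (495). A fit without the library labelled CD3+CD8- 6, chosen after seeing the data, gave 269 and 401. Leaving out 1 replicate gave 42 to 599 higher and 53 to 664 lower. Log2 fold changes that changed sign with the replicate block were Lck -0.059 and Cxcr6 0.11; with only the 6 libraries and the block, Lck -0.22, Cxcr6 0.0028 and Pcna -0.0080106; with lane as a covariate, Alb -0.38, Cxcr6 0.075 and Xist -2.22; with no filter, Pcna -0.023. With GC correction they were Zap70 0.26, Gimap4 -0.063, B2m -0.29, Pcna -0.25 and Rps24 -0.17. With voom they were Lck -0.69, Lat -0.0601, Gzmk -0.26, Ccl5 -0.74, Pdcd1 -0.70, Cd2 -0.10 and Cxcr6 0.092. Without both ribosomal-rich libraries they were Cd4 -0.37, Zap70 0.41, S100a9 -3.40, Alb -3.19, Cxcr6 0.23, mt-Rnr2 -1.65 and Xist -7.65. Under library totals, whose median shift was -1.15, they were Ptprc -0.71, Cd3g -0.095, Cd4 -1.33, Lck -0.32, Ccl5 -0.45, Pdcd1 -0.42, Mki67 -0.29, Fyb -0.29, Ptpn22 -0.22, Satb1 -0.13, Cd2 -0.57, Gimap4 -0.75, B2m -0.77, S100a9 -2.02, Alb -1.97, Mx1 -0.14, Trim30a -0.54, Pcna -0.87, Cd69 -0.17, Rps24 -0.75 and Xist -0.88. Under FPKM, whose median shift was -1.47, they were Ptprc -1.40, Cd3e -0.91, Cd3d -1.13, Cd3g -1.29, Cd247 -1.11, Cd8a -0.13, Trac -0.76, Cd4 -1.63, Lck -2.19, Lat -1.60, Gzmk -1.43, Ccl5 -2.08, Pdcd1 -1.52, Mki67 -0.65, Cd28 -0.22, Prkcq -0.67, Fyb -0.74, Ptpn22 -1.12, Satb1 -0.74, Cd2 -1.83, Gimap4 -1.69, B2m -1.97, S100a9 -1.99, Runx2 -0.084, Alb -1.88, Il6st -0.31, Mx1 -0.80, Trim30a -1.14, Pcna -1.73, Cd69 -1.10, Slc16a1 -0.00041, Rps24 -1.99 and Xist -0.37. Over the fits that left out 1 replicate, the values of genes that changed sign ran over these ranges: Cd4 -0.16 to 0.53, Lck -0.91 to 0.58, Lat -0.43 to 1.02, Gzmk -0.41 to 1.62, Ccl5 -0.73 to 0.54, Pdcd1 -0.99 to 1.44, Cd2 -0.25 to 0.42, B2m -0.14 to 0.37, Alb -1.02 to 2.24, Cxcr6 -0.32 to 0.45, Pcna -0.25 to 0.26, Rps24 -0.011 to 0.35 and Xist -6.64 to 2.78. The cause of these changes was not tested. In CD3+CD8+ libraries 1 and 18, 613074 and 428171 counts outside the 5 large loci limit what can be read of genes of a few CPM.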
